A study of Mus musculus with 8 samples.

Results

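The cytosolic ribosomal protein genes encode the proteins that, with the ribosomal RNAs, build the large and the small subunit of the ribosome that translates nuclear-encoded mRNA. Members were chosen by symbol, as Rpl or Rps followed by a number and at most a short suffix, together with Rplp0, Rplp1, Rplp2 and Rpsa, and without pseudogene symbols and the Rps6k kinases. The rule found 87 genes among the 27179 rows of the count table. Of these, 46 belong to the large subunit, 31 to the small subunit and 8 are paralogs of such genes (Rpl3l, Rpl7l1, Rpl10l, Rpl22l1, Rpl36al, Rpl39l, Rps4l and Rps27l). Rpl6l and Rpl32l are other copies that the symbol rule takes in, and RefSeq gives Rpl6l and Rps4l a pseudogene biotype.

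The data are RNA sequencing counts of whole primary tumours, which grew orthotopically in female BALB/c mice, 7 to 8 weeks old at injection, after 100000 cells of 4T1.13, a metastatic mouse mammary carcinoma line, had been injected into the fat pad. Both lines carried a lentiviral vector with an mCherry reporter and hygromycin resistance, and each was a pool of clones. In 4T1.13-miR-21-KD cells (miR-21-KD, 4 tumours) the H1 promoter of the vector drives a miR-21-sequestering RNA, and in 4T1.13-VC cells (VC, 4 tumours) a scrambled RNA. The host cells of the tumour do not carry the vector. The labels give 14 days after injection, whereas the study's methods name an earlier day. The tumours held between 12134849 and 13592695 counts each. Mir21a, the gene of the precursor, had 0 counts in all 8 tumours, so the precursor gives no check of the knockdown, and sequestering need not lower it. Pdcd4, an established target that miR-21 represses, was higher in every miR-21-KD tumour, at 44.0 to 66.0 CPM (counts scaled to library size, per 1000000) against 21.0 to 31.3 CPM in VC tumours. Of the tumour epithelium markers, Epcam and Cdh1 were present in every tumour, with the lowest values 13.5 and 16.8 CPM.

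Ribosomal proteins are made in matched amounts, and most of their mRNAs begin with a 5′ terminal oligopyrimidine (TOP) tract, a C followed by an unbroken run of pyrimidines, through which the mTOR pathway and Larp1 control their translation. The tract acts on translation, while the values here are mRNA counts. In RefSeq promoter sequences (GRCm38.p6), 65 of the 87 members had an entry, and 50 of these (76.9%) held a C followed by at least 7 C or T between 20 bases before and 50 bases after an annotated start, read on the gene's strand, against 22.7% of 27025 genes. On the opposite strand the same search found it in 8 members (12.3%) and 25.96% of all genes. Such a run is called the tract below. The search did not ask whether the run begins the mRNA, so it is not shown to be a TOP tract. The following sequences show the tract, in capitals, for 3 members that fell in miR-21-KD tumours and 3 that had fold changes above zero without passing the test. Only members whose tract began within 15 bases of the annotated start were used.
Rpl7a, chr2:26910790-26910819, plus strand: caattCCCTCTTCTTTCTTTCTCCagcagc
Rpl15, chr14:18270966-18270995, minus strand: gaaagCCTTCTTCCTTTCCTCTggcggcag
Rpl27a, chr7:109519186-109519215, plus strand: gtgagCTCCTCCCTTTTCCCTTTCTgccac
Rpl13a, chr7:45128719-45128748, minus strand: caagaCCTCCTCCTTTCCCaggcggctgcc
Rplp2, chr7:141447642-141447671, plus strand: agcgtCTTCCTTTCgccgccggacgccgcc
Rps27, chr3:90213626-90213655, minus strand: tttcgCTCCTTTCCggcggtgacgacctcc
The tract was found in members with fold changes on either side of zero. Of the tested members with a promoter sequence, 8 of 47 with the tract and 4 of 14 without it were lower in miR-21-KD tumours, against 19.5% of all genes tested, and the median log2 fold changes were -0.15 and -0.13.

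The members together held a smaller share of the counts in every miR-21-KD tumour than in any VC tumour. The share was 1.41%, 1.41%, 1.48% and 1.60% in the VC tumours and 1.08%, 1.27%, 1.35% and 1.39% in the miR-21-KD tumours. The means were 1.47 ± 0.0918% and 1.27 ± 0.135% (SD, n = 4 each), and exact 95% binomial intervals, which cover counting error only, were no wider than 1.59% to 1.61% (VC replicate 4). The highest miR-21-KD tumour, at 1.39%, lay close under the lowest VC tumour, at 1.41%, and the share is given with no test. Such a share gives most weight to the most counted members. The mean log2 CPM (small constant added) over the members tested below, which weights them equally, overlapped between the groups. It was 5.50, 5.52, 5.58 and 5.74 in VC and 5.23, 5.49, 5.57 and 5.56 in miR-21-KD tumours, in order of replicate number. The large subunit members held 0.742% to 0.839% of the counts in VC and 0.553% to 0.724% in miR-21-KD tumours, which do not overlap. The small subunit members held 0.608% to 0.714% and 0.501% to 0.627%, which do overlap. Within each replicate number the miR-21-KD tumour had the lower small subunit share, at 0.501% against 0.622%, 0.555% against 0.608%, 0.611% against 0.645% and 0.627% against 0.714%, and the large subunit share was lower in all 4 as well. In whole tumours, fewer cells of a type and less RNA per cell cannot be told apart.

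**Figure D1:**
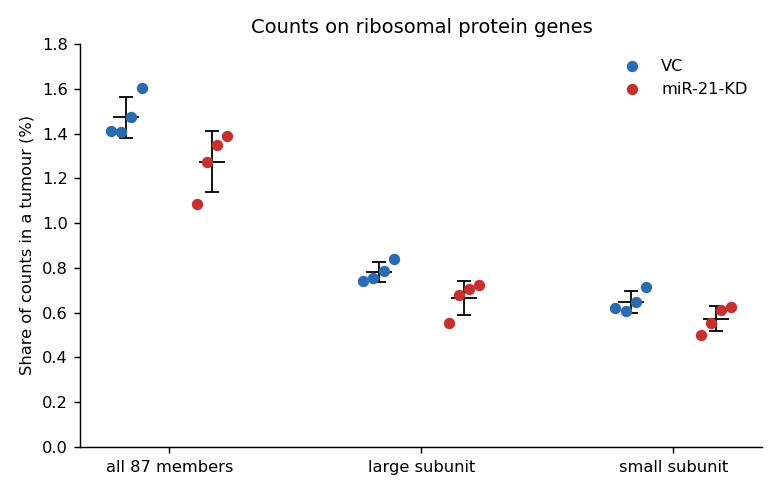
Share of all counts (%) on the 87 ribosomal protein genes, on the 46 large subunit and on the 31 small subunit members. Each point is a tumour, the horizontal mark is the mean of 4 and the bar its SD; for all members the VC tumours lie between 1.41% and 1.60% and the miR-21-KD tumours between 1.08% and 1.39%.

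Gene by gene, 16 members were lower and 1 was higher in miR-21-KD tumours. After genes with few counts were removed, 82 members were among the 14382 genes tested with the quasi-likelihood test of edgeR, with Benjamini-Hochberg adjustment over all of them and a threshold of 0.05. The 16 lower members are 19.5% of the 82, against 19.5% of all genes tested, so that the share of lower calls was that of the background. The 1 higher member, Rps4l, is 1.22% of the 82, against 19.6% of all genes. In either direction 20.7% of the members were called and 39.1% of all genes. With the replicate number as a block in the fit, which treats same-numbered tumours as pairs, 16 members were lower, against 22.1% of all genes, and 4 were higher, against 23.0%. Of the calls with the block, 14 were also made without it. The median log2 fold change of the 82 members was -0.14, beside -0.01 over all genes tested, with 62 values below and 20 above zero. Their quartiles lay at -0.29 and -0.03, against -0.33 and 0.44 for all genes, and only Rps4l was beyond 1 in either direction. The CPM values of the groups did not overlap for 22 of the 82 members (26.8%), against 35.2% of all genes. The share without overlap was 24.4% of the members on the lower side, against 18.9% of all genes, and 2.44% on the higher side, against 16.3%.

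The count of lower members changed when a tumour was left out, and so did the share of all genes called lower. It was 6 (7.32%) without VC replicate 3, where 10.2% of all genes were lower, and 8 (9.76%) without miR-21-KD replicate 4, where 11.1% were. It was 10 (12.2%) without VC replicate 1, VC replicate 2, VC replicate 4 or miR-21-KD replicate 1, where 16.6%, 10.8%, 18.4% and 13.7% of all genes were lower. Without miR-21-KD replicate 3 it was 11 (13.4%) and without miR-21-KD replicate 2 it was 13 (15.9%), beside 12.2% and 24.3% of all genes. The members' share of lower calls was thus below or near that of all genes in these fits. Rpl7a, Rpl15, Rpl23, Rpl7l1, Rpl27a, Rps4x and Rps4l passed the threshold in all 8 of these fits. Within the VC group, replicate 4 had the highest value for 56 of the 82 members, and within the miR-21-KD group replicate 1 had the lowest for 68. The median log2 fold change was -0.08 without the first of these tumours and -0.06 without the second.

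**Figure D2:**
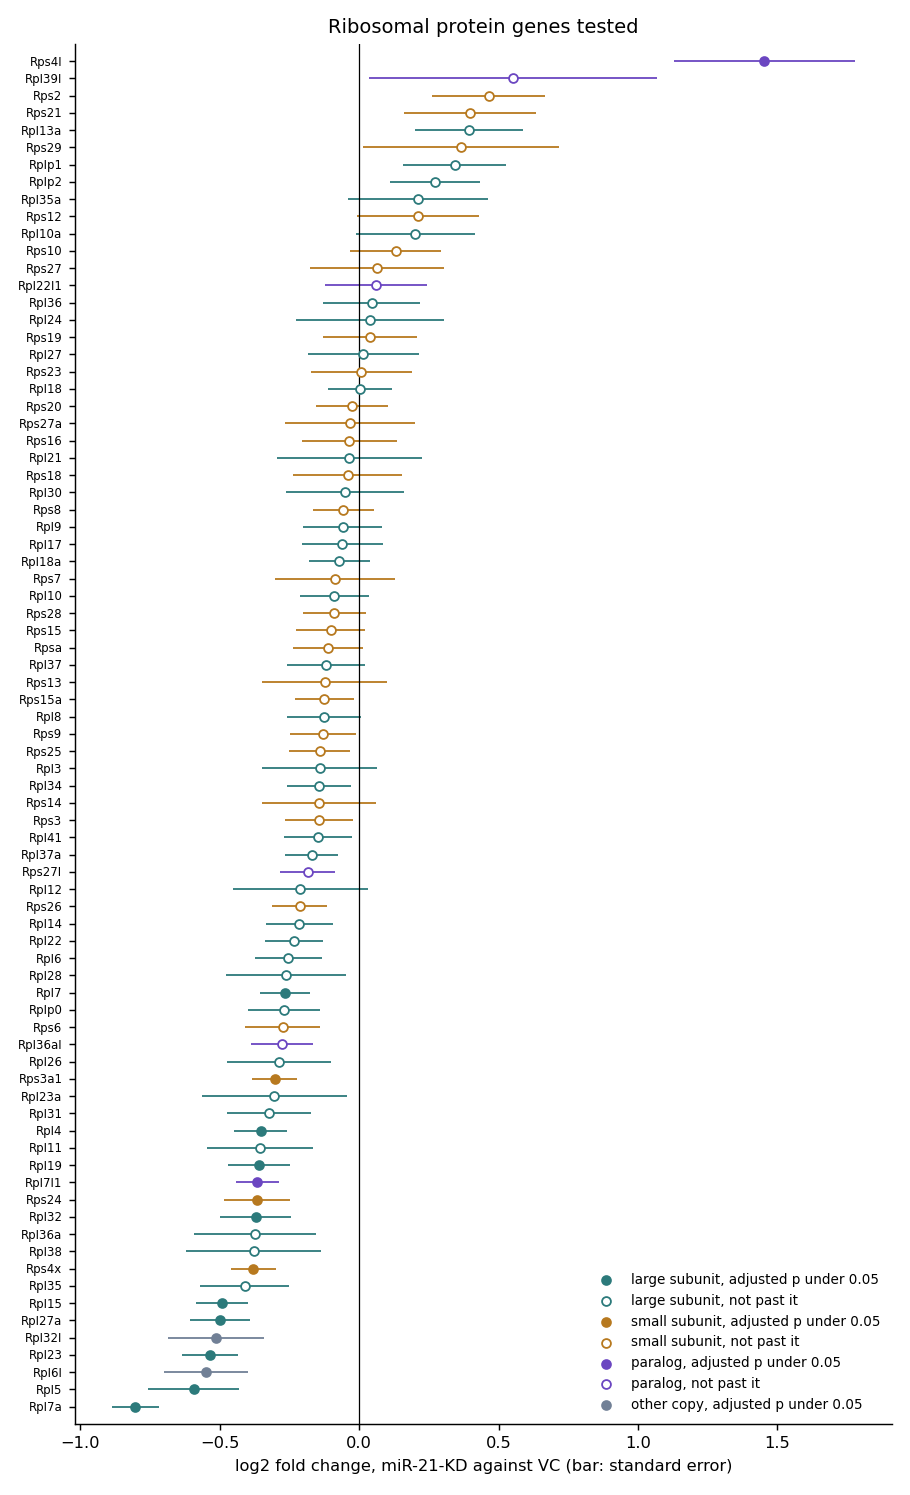
Log2 fold change of miR-21-KD against VC tumours for 79 of the 82 members tested, with the standard error as a bar, ordered by value and coloured by subunit. Filled points have an adjusted p under 0.05 from edgeR; 15 of them lie below zero and Rps4l, at 1.45, is the 1 above it.

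Of the large subunit members, 9 of 43 tested were lower (20.9%, beside 19.5% of all genes) and 0 higher (beside 19.6%), with a median log2 fold change of -0.21. At an unadjusted p under 0.05, 10 of the 43 passed in either direction, against 50.7% of all genes. With the block 17 of the 43 passed at that p, against 54.6% of all genes, and 9 were lower and 3 higher after adjustment. The fall was largest for Rpl7a (Entrez 27176, on chromosome 2). Rpl7a was counted at 229, 218, 227 and 216 CPM in the VC tumours and at 117, 140.2, 132 and 120.4 CPM in the miR-21-KD tumours. The groups lay far apart relative to their spread, with means of 222 ± 6.56 and 128 ± 10.7 CPM (SD, n = 4 each), and Rpl7a fell by 42.7% (log2 fold change -0.80, SE 0.08, edgeR adjusted p = 0.00501).

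Rpl23, which can bind the p53 regulator Mdm2 outside the ribosome, had 433, 358, 384 and 374 CPM in VC against 233, 287, 275 and 274 CPM in miR-21-KD tumours. It fell by 0.53 on the log2 scale (SE 0.10, edgeR adjusted p = 0.00800), and every miR-21-KD tumour was below every VC tumour. Rpl15 had 39.2, 43.7, 42.5 and 38.1 CPM in VC against 30.3, 28.1, 26.5 and 31.4 CPM in miR-21-KD tumours, again without overlap (log2 fold change -0.49, SE 0.09, edgeR adjusted p = 0.00774). Rpl27a, another large subunit protein, fell from 60.8 ± 4.68 to 43.0 ± 5.23 CPM (SD, n = 4 each; log2 fold change -0.50, edgeR adjusted p = 0.0109). Rpl4, whose extended loop lines the exit tunnel for the nascent chain, was the most counted member. Its values were 1396, 1298, 1355 and 1364 CPM in VC against 983, 1095, 1094 and 1067 CPM in miR-21-KD tumours. The log2 fold change of Rpl4 was -0.35 (SE 0.09, edgeR adjusted p = 0.0207), and the call was lost without VC replicate 3 or miR-21-KD replicate 4.

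The remaining large subunit members that fell were Rpl5, Rpl7, Rpl19 and Rpl32. Rpl5 and Rpl11 form, with the 5S ribosomal RNA, a particle that restrains Mdm2 when it is not built into ribosomes. Rpl5 had 19.9, 24.2, 25.3 and 20.03 CPM in VC against 10.9, 15.01, 17.4 and 15.97 CPM in miR-21-KD tumours, a log2 fold change of -0.59 (SE 0.16, edgeR adjusted p = 0.0226), and it did not pass without VC replicate 2 or VC replicate 3. Rpl11 had a log2 fold change of -0.36 that did not pass (edgeR adjusted p = 0.160), with 5.23 ± 0.855 and 4.08 ± 0.414 CPM (SD, n = 4 each). Mdm2 itself had 95.7 ± 7.56 and 95.4 ± 6.76 CPM (SD, n = 4 each) and a log2 fold change of 0.00 (edgeR adjusted p = 0.975). The calls of Rpl32 were lost in all 8 fits that left out a tumour, and those of Rpl7 in 7 of the 8, and both were lost with the block (edgeR adjusted p = 0.0560 and 0.0638). Among the other lower members, Rpl19 passed in 3 of the 8, Rpl6l in 4, and Rpl32l and Rps24 in 1.

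Of the small subunit members, 4 of 31 were lower (12.9%, beside 19.5% of all genes), among them Rps4x, Rps3a1 and Rps24, and 0 were higher, with a median log2 fold change of -0.10. At an unadjusted p under 0.05, 5 of the 31 passed in either direction, against 50.7% of all genes. Rps4x, the X-linked gene of the S4 protein, had 193, 211, 212 and 215 CPM in VC against 147, 154, 171 and 167 CPM in miR-21-KD tumours. The groups did not overlap, and Rps4x fell by 23.1% (log2 fold change -0.38, SE 0.08, edgeR adjusted p = 0.0111). Rps3a1 fell by 18.9%, from 237 ± 9.86 to 192 ± 13.2 CPM (SD, n = 4 each; edgeR adjusted p = 0.0207), a call that was lost without VC replicate 3.

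None of the small subunit members chosen for their role passed the test. Rps6, the substrate of the S6 kinases, had 13.1 ± 1.26 CPM in VC against 10.8 ± 1.097 CPM in miR-21-KD tumours (mean ± SD of 4). The log2 fold change of Rps6 was -0.27 (edgeR adjusted p = 0.128) although the groups did not overlap. Rps3, at the mRNA entry of the small subunit, had 1105 ± 111 and 999.8 ± 102 CPM (SD, n = 4 each; log2 fold change -0.14, edgeR adjusted p = 0.360). Rpsa, also known as the laminin receptor, had a log2 fold change of -0.11 (edgeR adjusted p = 0.493). Rps19, the gene most often mutated in Diamond-Blackfan anaemia, had a log2 fold change of 0.04, and Rps27a, which encodes ubiquitin fused to a ribosomal protein, had -0.03. Their adjusted p-values from edgeR were 0.871 and 0.922. Of the remaining large subunit members picked for their role, Rpl10, which joins late in assembly, had a log2 fold change of -0.09 (edgeR adjusted p = 0.589). Rpl38, known for its part in the translation of Hox mRNAs, had -0.38 (edgeR adjusted p = 0.235).

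**Figure D3:**
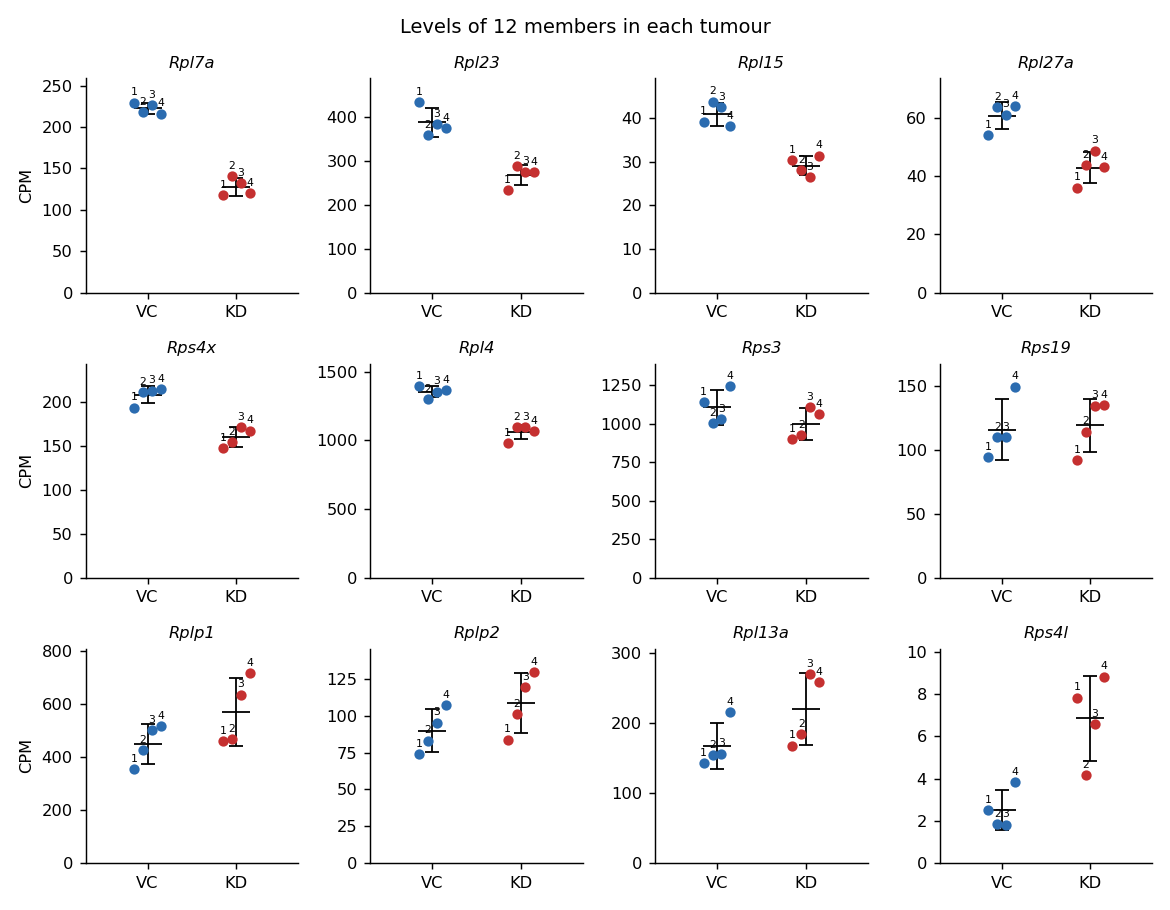
CPM of 12 members in each of the 8 tumours, numbered by replicate, with the mean and SD of 4 tumours in black; every axis starts at 0. Rpl7a, Rpl23, Rpl15, Rpl27a, Rps4x and Rpl4 are lower in all miR-21-KD tumours, Rps4l is higher in all of them, and the groups overlap for Rps3, Rps19, Rplp1, Rplp2 and Rpl13a.

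None of the genes of the stalk, which recruits the elongation factors, passed the test. Rplp0, the base of the stalk, had 581.7 ± 42.3 CPM in VC against 483 ± 70.5 CPM in miR-21-KD tumours (mean ± SD of 4), with a log2 fold change of -0.27 (edgeR adjusted p = 0.119). Rplp1 had 354, 427, 502 and 516 CPM in VC against 459.5, 469, 637 and 718 CPM in miR-21-KD tumours, a log2 fold change of 0.34 (SE 0.18, edgeR adjusted p = 0.163). Rplp2 had 74.1, 83.2, 95.4 and 107 CPM in VC against 84.0, 101, 119.9 and 129.8 CPM in miR-21-KD tumours, a log2 fold change of 0.27 (SE 0.16, edgeR adjusted p = 0.201). For Rplp1 and Rplp2 the groups overlapped, but within each replicate number the miR-21-KD tumour was the higher. With the replicate number as a block, Rplp1 and Rplp2 passed the threshold as higher (edgeR adjusted p = 0.0344 and 0.0219) and Rplp0 stayed just outside it (edgeR adjusted p = 0.0511).

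Rpl13a, which in myeloid cells also acts outside the ribosome in a complex that silences inflammatory mRNAs, did not pass either. It had 143, 154, 156 and 215 CPM in VC against 167, 183, 269 and 258 CPM in miR-21-KD tumours. Its log2 fold change of 0.39 (SE 0.19, edgeR adjusted p = 0.130) passed with the block (edgeR adjusted p = 0.0409) and without VC replicate 4 (edgeR adjusted p = 0.0495). The block added Rpl6, Rpl35 and Rpl36al to the lower members (edgeR adjusted p = 0.0379, 0.0344 and 0.0428), added Rplp1, Rplp2 and Rpl13a to the higher, and dropped Rpl7, Rpl32 and Rpl32l, the last at an adjusted p of 0.0569. Rps2, a small subunit member with few counts, was the only other member than Rps4l whose miR-21-KD values all lay above the VC values, at 4.20 to 5.24 against 2.52 to 3.84 CPM (log2 fold change 0.46, edgeR adjusted p = 0.0980), and was chosen for mention after its values were seen.

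Rps4l (Entrez 66184), a copy of Rps4x on chromosome 6, was the member that rose. It was counted 34, 23, 23 and 47 times in the VC tumours and 97, 53, 81 and 113 times in the miR-21-KD tumours. In CPM these were 2.51, 1.83, 1.81 and 3.84 against 7.84, 4.17, 6.57 and 8.84. The groups did not overlap, and the log2 fold change was 1.45 (SE 0.33, edgeR adjusted p = 0.0122).

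The paralogs were also set against their partners by the log2 ratio of their counts within each tumour, which does not depend on scaling. For Rps4l against Rps4x this ratio was -6.27, -6.84, -6.87 and -5.80 in VC and -4.23, -5.20, -4.70 and -4.24 in miR-21-KD tumours. The mean ratio was higher by 1.85 in miR-21-KD tumours without overlap (exact two-sided permutation p = 0.0286, the smallest that 4 against 4 tumours allow, and 0.143 after adjustment over the 5 pairs that could be tested). Rps4x, with 160 to 208 CPM on average, remained by far the more counted gene of the pair. None of the other 4 pairs had an unadjusted exact permutation p under 0.05. Rpl22l1, which Rpl22 is known to repress, had a log2 ratio to Rpl22 that was higher by 0.30 (exact permutation p = 0.0857, adjusted p = 0.214). The permutation does not use the replicate number. Within each replicate number the Rpl22l1 ratio was higher in the miR-21-KD tumour, as was that of Rps4l, while the remaining pairs went both ways. Rpl36al against Rpl36a differed by 0.12, Rpl7l1 against Rpl7 by -0.10 and Rps27l, a p53 target, against Rps27 by -0.26 (exact permutation p = 0.429, 0.257 and 0.314). Rpl7l1 itself fell from 129 ± 8.43 to 100.003 ± 4.53 CPM (SD, n = 4 each; log2 fold change -0.36, edgeR adjusted p = 0.0105), beside -0.27 for Rpl7. Rpl39l, mostly known from the testis, had at most 1.89 CPM in any tumour and did not pass (edgeR adjusted p = 0.416).

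Counts were spread very unevenly over genes whose proteins are made in matched amounts. Per kilobase of the principal transcript, the highest mean levels over the 8 tumours included those of Rps15 (1380.0 CPM per kilobase), Rpl41 (1113), Rplp1 (1023) and Rpl4 (784). The first 3 of these showed no difference past the threshold between the groups. At the other end, Rpl10l had 0 counts in all 8 tumours, Rpl39 had 0 to 2, Rpl3l 0 to 5, Rpl13 5 to 8 and Rpl29 5 to 11, and these 5 were not tested. Rpl10l and Rpl3l are known as paralogs of testis and of muscle, while Rpl13, Rpl29 and Rpl39 are ordinary parts of the ribosome. Counting 0 in a tumour allows up to 0.221 to 0.247 CPM.

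Many ribosomal protein genes have processed pseudogenes, whose sequences are near copies of the mRNA, so that reads may not be assigned to 1 place. The share of 50-base windows of a member's principal transcripts found in no other gene's transcripts was computed from the GENCODE annotation, as a description of how much of the gene can be told apart. It ranged widely, from 1.35% for Rps27 to every window for the paralogs Rpl3l and Rpl39l. The 33 large and small subunit members under 20 CPM had a median of 44.5% such windows and shared windows with a median of 14 pseudogenes. The 44 members at or above 20 CPM had 66.7% and 7. Across these 77 genes, Spearman's rho between the mean CPM and the share of unique windows was 0.40, and -0.47 with the number of pseudogenes. Rpl39 is an exception, with 83.5% unique windows and next to no counts. Rps27 had 4.82 CPM, while Rps27rt, a retrogene of it that the symbol rule does not take in, had 206 CPM. How the reads were divided among such copies was not tested, and the level of a member with few unique windows is uncertain.

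**Figure D4:**
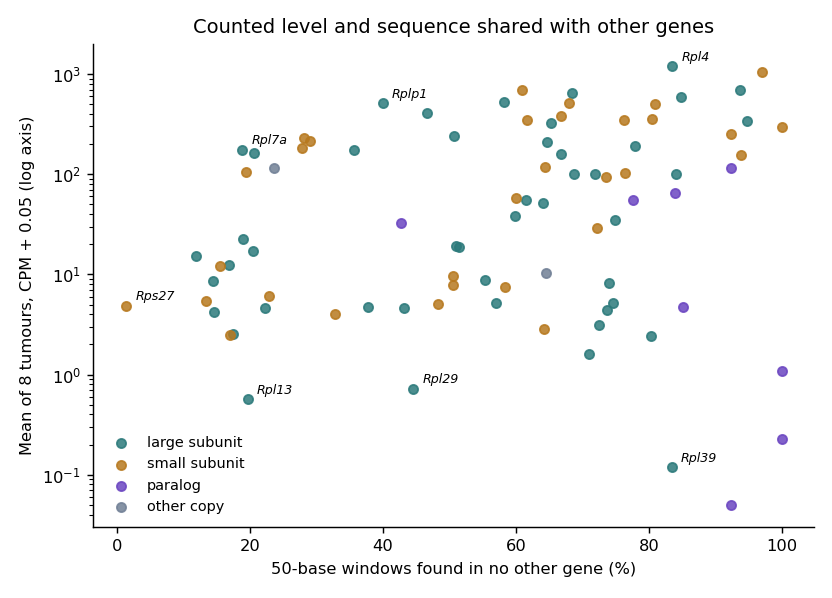
Mean CPM over 8 tumours (log axis, 0.05 added so that 0 can be drawn) against the share of 50-base windows of the transcript found in no other gene (%), for the 87 members, each point a gene. Rps27 has 1.35% unique windows and 4.82 CPM, while Rpl39 has 83.5% and almost no counts.

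Over the 74 tested members of the large and small subunit, Spearman's rho of the log2 fold change was -0.03 with the share of unique windows, -0.25 with transcript length and -0.24 with the mean CPM. Among members of at least 20 CPM, 14 of 49 were lower (28.6%), against 25.0% of all genes at that level, and 0 were higher, against 17.1%. Below 20 CPM, Rpl5 and Rpl32l were the lower and Rps4l the higher member of 33 tested (6.06% and 3.03%, against 11.8% and 23.1% of all genes at that level). For members with at least 50% unique windows, 9 of 54 were lower (16.7%), and for the others 7 of 28, beside 19.5% of all genes, with a median log2 fold change of -0.14 and -0.13. Of the members that fell most clearly, Rpl7a had 18.8% and Rps4x 27.8% unique windows, and Rpl7a shared windows with 120 pseudogenes, while Rpl4 had 83.5%, Rpl15 74.99% and Rpl23 65.2%.

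Some proteins of the ribosome have genes that the symbol rule leaves out. Rack1, a scaffold on the small subunit, had 992 ± 90.5 CPM in VC against 769 ± 104 CPM in miR-21-KD tumours (mean ± SD of 4) without overlap, and missed the threshold (log2 fold change -0.37, edgeR adjusted p = 0.0509), which it passed with the block (edgeR adjusted p = 0.0359). Fau, which encodes a ribosomal protein fused to a ubiquitin-like protein, had a log2 fold change of 0.21 (edgeR adjusted p = 0.284).

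Called genes among the other genes of translation and among the mitochondrial ribosomal proteins were all lower. Of 24 other translation genes, many of them with TOP mRNAs, 9 were lower (37.5%, beside 19.5% of all genes) and 0 higher (beside 19.6%), with a median log2 fold change of -0.32. The subunit Eif3h of an initiation factor fell by 0.65, Hnrnpa1 by 0.69 and the helicase cofactor Eif4b by 0.48 on the log2 scale. Of 77 mitochondrial ribosomal protein genes, 21 were lower (27.3%, beside 19.5% of all genes) and 0 higher (beside 19.6%), with a median log2 fold change of -0.22. Mrps2, Mrpl42 and Mrpl24 fell by 0.74, 0.63 and 0.43. These counts, too, changed with the tumour left out, beside the shares of all genes given above for the same fits. The translation genes gave 5 without VC replicate 3, miR-21-KD replicate 3 or miR-21-KD replicate 4. The mitochondrial ribosomal proteins gave 12 without VC replicate 3 and 13 without VC replicate 2 or miR-21-KD replicate 3. Lower calls were more frequent among well counted genes. Of all genes with a mean of at least 20 CPM, 25.0% were lower and 17.1% higher. The gene lists here and below were not split by level.

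In the nucleolus, where ribosomes are assembled, most called genes were lower as well. Of 22 genes of RNA polymerase I transcription 8 were lower (36.4%, beside 19.5% of all genes) and 0 higher (median -0.36), with Polr1d, Taf1b and Ubtf at log2 fold changes of -0.50, -0.65 and -0.47. Of 46 genes of pre-rRNA modification and early processing 14 were lower (30.4%) and 1 was higher (median -0.29). Snu13 and Utp3 fell by 0.50 and 0.53 on the log2 scale, while Heatr1, a factor of early processing, rose from 79.5 ± 7.23 to 121 ± 14.4 CPM (SD, n = 4 each; log2 fold change 0.61, edgeR adjusted p = 0.00693). Of 41 genes of large subunit assembly 13 were lower (31.7%) and 0 higher (median -0.34), among them Rpf1, Gnl2 and Ftsj3 at -0.73, -0.44 and -0.58. Polymerase I genes gave 4 lower calls without VC replicate 3, 5 without VC replicate 2 or miR-21-KD replicate 4, and 15 without miR-21-KD replicate 2. Early processing genes gave 4 without VC replicate 2, 5 without VC replicate 3 or miR-21-KD replicate 3, 6 without miR-21-KD replicate 4, 7 without miR-21-KD replicate 1, 29 without miR-21-KD replicate 2, and 22 with the block. Large subunit assembly genes gave 6 without VC replicate 2, VC replicate 3 or miR-21-KD replicate 4, 7 without miR-21-KD replicate 3, 26 without miR-21-KD replicate 2, and 21 with the block.

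**Figure D5:**
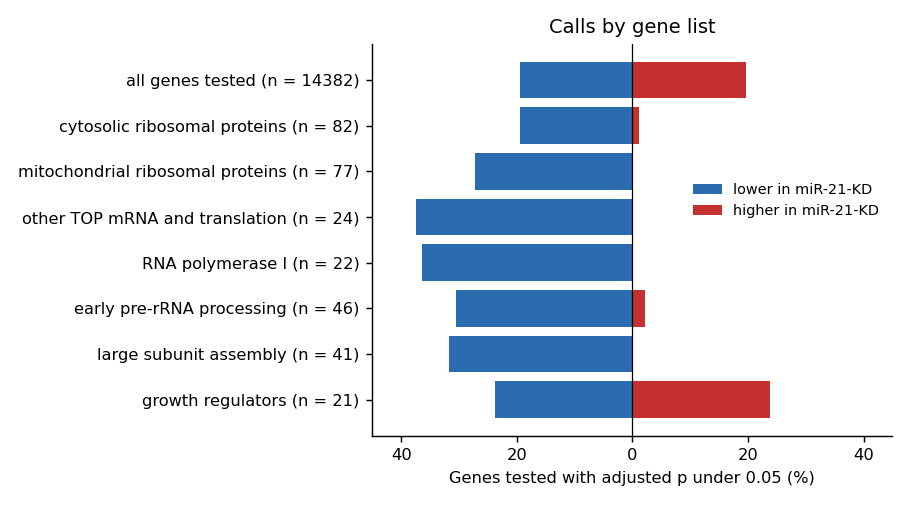
Percent of the genes tested in each list that were lower (to the left of 0) or higher (to the right) in miR-21-KD tumours by edgeR (adjusted p under 0.05). Both directions hold 19.5% and 19.6% of all genes tested, whereas the cytosolic ribosomal proteins hold 19.5% and 1.22% and no mitochondrial ribosomal protein is higher.

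Of 21 regulators of ribosome production, 5 were lower and 5 higher, 23.8% in each direction, near the 19.5% and 19.6% of all genes. Of the 5 higher regulators only Pdcd4 is named here. Pdcd4, an inhibitor of the initiation helicase, rose from 26.3 ± 4.74 to 53.3 ± 10.6 CPM (SD, n = 4 each; log2 fold change 1.02, SE 0.18, edgeR adjusted p = 0.00674). Larp1, Mtor, Tsc1 and Eif4e, which act in the mTOR control of TOP mRNAs and cap-dependent translation, fell by 0.49, 0.32, 0.52 and 0.45 on the log2 scale (edgeR adjusted p = 0.0149, 0.0296, 0.00672 and 0.0149). The call of Mtor was lost without VC replicate 2, VC replicate 3, miR-21-KD replicate 1, miR-21-KD replicate 3 or miR-21-KD replicate 4. Myc, a driver of ribosomal protein and rRNA synthesis, had 124 ± 8.01 and 112 ± 33.8 CPM (SD, n = 4 each; log2 fold change -0.15, edgeR adjusted p = 0.579). The higher calls of the list numbered 1 without VC replicate 2, VC replicate 3 or miR-21-KD replicate 3, 2 without miR-21-KD replicate 1 or miR-21-KD replicate 4, and 3 without VC replicate 4 or miR-21-KD replicate 2. The lower calls numbered 3 without VC replicate 2 or VC replicate 3. In the fits that left out a tumour, 9.90% to 22.5% of all genes were higher and 10.2% to 24.3% lower.

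Markers of host cells moved with the groups as well. The summed CPM of 10 macrophage and monocyte markers lay between 3428 and 5348 in VC and between 6314 and 10748 in miR-21-KD tumours, and 8 of the 10 were higher, against 19.6% of all genes. The 7 fibroblast markers summed to 3062 to 8041 and 10460 to 23375 CPM, with 5 higher. The 6 adipocyte markers summed to 32.9 to 172 and 286 to 975 CPM, with all 6 higher. The sums of 6 neutrophil and 7 dendritic cell markers did not overlap between the groups either, with 1 and 3 higher. No marker of these 5 lists was at 0 in all 8 tumours. Of the 7 tumour epithelium markers 5 were higher and Krt18 was lower, and their sums overlapped, at 1285 to 2212 and 837 to 1883 CPM. For T cells 6 of 10 were higher, for NK cells 2 of 5 and for endothelium 2 of 6, for B cells 0 of 4 tested, for erythroid cells 0 of 3, for skeletal muscle 1 of 3, with 1 lower, and for germ cells 2 of 2 tested, with Tnp1 at 0 in all tumours. The part of these cells in the ribosomal protein values was not tested.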

How the data were processed

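The table that the authors deposited holds unnormalized read counts for each Entrez identifier, with a column for every tumour. Per the labels, the submitters' processing notes name Subread, featureCounts, edgeR, limma and the build mm10, without versions; strand handling is not given in the sources used here. Symbols matched 25275 of 27179 identifiers.

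Counts were tested in R 4.3.3 with edgeR 4.0.16 (filterByExpr with minimum count 10 and minimum total 15, TMM scaling, robust quasi-likelihood test, Benjamini-Hochberg adjustment, threshold 0.05), which was tested on simulated data. CPM are per 1000000 counts of the library size times the TMM factor. Transcript lengths and 50-base windows came from GENCODE M21 principal transcripts and promoters from RefSeq. Windows were compared on either strand with transcripts of genes that do not overlap the member. Single ratios were compared by exact permutation (Python 3.11.15, scipy 1.17.1). Alternatives were DESeq2 1.42.0, limma-voom (limma 3.58.1), other scalings and filters, a replicate block and each tumour left out. Totals of 12134849 to 13592695 counts leave members of few counts imprecise.

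The named members were, among those called, the 8 with the smallest adjusted p on either side, the paralog pairs, the 5 of highest level per length and 13 chosen for their role; in other lists, the 3 of smallest adjusted p, with some regulators. The other members named by symbol, among them Rpl6, Rpl6l, Rpl13, Rpl19, Rpl29, Rpl32, Rpl32l, Rpl35, Rps2, Rps14 and Rps24, and Rps27rt were chosen after their values were seen. A few of the genes so picked are not reported here. Members, lists and this rule were chosen with earlier results of these data known, and the splits at 20 CPM and 50% unique windows after seeing the values. Marker and pathway lists were written from general knowledge.

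Both groups number their tumours 1 to 4. After removal of group means, the correlations of same-numbered tumours were 0.272, 0.421, 0.175 and 0.376. The 12 differently numbered combinations averaged -0.105. Removing the group means ties that average to the same-numbered correlations, so it adds no separate evidence. By the same-numbered correlations, all above zero, same-numbered tumours varied together, although no label says what a number stands for. The calls in the text come from the fit without a block, since the text of the study used here does not describe the model fitted to the counts, and values with the block are given for the members whose call it changed and for the counts of each list it moved. The labels call the tumours separate samples, and p-values measure the spread between them.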

Additional observations from a re-analysis of the deposited data

Results flagged for a closer look

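In groups of 4 tumours, a tumour standing apart from the other 3 by Dixon's criterion was looked for in 148 groups of values, of which chance alone would flag about 1 in 20, and 6 were found. VC replicate 4 stood high for Rpl22l1, with 42.6 CPM against 28.1 to 28.8 in the other VC tumours, for its log2 ratio to Rpl22, with -3.24 against -3.69 to -3.64, and for Rpl36al, with 80.4 against 66.6 to 68.2 CPM. VC replicate 2 stood low for Rps3a1, with 223 against 240.1 to 243 CPM. VC replicate 1 stood high for Eif3h, with 392 against 376 to 377 CPM. The miR-21-KD replicate 1 stood low for Rpl7, with 328 against 382 to 384 CPM.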

How the results depend on the processing

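With DESeq2, limma-voom, library size scaling or scaling without the ribosomal protein genes, the same 17 members were called as in the report. Upper-quartile scaling and a minimum of 10 counts in each tumour each gave 12, all of them among the 17, and no filter gave 14. The lower calls were 13.4%, 13.6% and 15.1% of the members tested under these settings, against 17.4%, 18.2% and 12.8% of all genes. The lower small subunit members numbered 2 with upper-quartile scaling and 2 with that minimum. With the replicate block the higher members numbered 4, of which 3 of the large subunit, the lower paralogs 2, the lower genes of early processing 22 and those of large subunit assembly 21, and 17 of the large subunit members, against 10, had an unadjusted p under 0.05. Its lower calls numbered 11 for polymerase I, 28 for mitochondrial ribosomal proteins, 10 for translation genes and 6 for growth regulators, with 4 higher. These, and the other counts of adjusted calls in these lists, moved by no more than 1.5 times, with the exceptions that follow. DESeq2 called 1 gene of polymerase I transcription higher, and 3 growth regulators were higher with library size scaling or no filter on low counts.

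Leaving out each tumour in turn gave 6 to 13 lower and 1 to 2 higher members, 4 to 8 lower and 0 to 1 higher large subunit members, and 1 to 3 lower small subunit members. It gave 5 to 11 lower translation genes, 4 to 15 of polymerase I, 4 to 29 of early processing, 6 to 26 of large subunit assembly, 12 to 28 of mitochondrial ribosomal proteins, and 3 to 6 lower and 1 to 4 higher growth regulators. The median log2 fold change of the members stayed between -0.19 and -0.06. Among the named genes, fold changes near zero changed sign. Rps27a was at 0.0077 with upper-quartile scaling, 0.017 with the minimum of 10 counts and -0.14 to 0.16 with a tumour left out. With a tumour left out, Rpl3 ranged from -0.27 to 0.0071, Rpl22l1 from -0.038 to 0.22, Rps27 from -0.084 to 0.19, Rps19 from -0.046 to 0.18 and Rps14 from -0.27 to 0.020, and none of these passed the threshold. Of the other named genes, Mdm2 was at 0.015 with DESeq2, 0.038 with upper-quartile scaling, 0.046 with the minimum of 10 counts and -0.065 to 0.030 with a tumour left out, and Myc at -0.34 to 0.017. Rack1 passed the threshold with DESeq2, limma-voom, library size scaling and the block. The cause of these changes was not tested.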
